A study of Homo sapiens with 3 samples.

Results

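In the day 5 culture of a fibroblast-to-neuron reprogramming series, 338 of 9219 kept cell barcodes (3.67%) were selected for a high share of unique molecular identifiers (UMIs, one per captured transcript) of NEUROD4, VXN and EBF2 and for no UMI of 4 transmitter genes. They were chosen in the deposited day 5 count matrix. A barcode was kept when it passed the depth limit given with the processing, had 300 or more genes and had no more than 20% of UMIs in mitochondrial genes. Of the kept barcodes, the 461 with the highest summed share of UMIs in NEUROD4, VXN and EBF2 (the top 5%) were taken, each with at least 2 such UMIs. The 123 of them with a UMI of SLC17A6, GAD1, GAD2 or SLC6A5 were set aside, which left the 338 members. SLC17A6 encodes the vesicular transporter of glutamate neurons, GAD1 and GAD2 the enzymes that make GABA, and SLC6A5 the glycine transporter of glycine neurons. The other 8881 kept barcodes of the same library served as the comparison.

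The series held 3 libraries, 1 for each day. The day 5 library came from FiN cells, labelled induced neuron cells, and the day 3 library from FiN cells 2 days earlier. The day 0 library came from wild-type BJ cells, an established line of human foreskin fibroblasts, and all 3 libraries, day 0 included, carry the treatment label reprogramming. The protocols give a neuronal induction medium with 10 µM forskolin (an activator of adenylyl cyclase), a maturation medium from day 2 and removal of forskolin at day 5. For days 0 and 3 they describe suspended nuclei and a kit for open chromatin, and for day 5 dissociated cells and a kit for gene expression beside that for open chromatin, although each matrix holds gene counts. Preparation and day therefore cannot be told apart, and nearly all comparisons here stay within day 5. After the filters, 16773 barcodes were kept at day 0, 11454 at day 3 and 9219 at day 5, with median depths of 14039, 1324 and 4374 UMIs. Barcode sequences shared between libraries numbered 63 for days 0 and 3, 47 for days 0 and 5 and 27 for days 3 and 5.

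With 1 library per day no test between samples exists, and cells of 1 library are not replicates. UMIs were summed over a group of barcodes and divided by the group's total and scaled as CPM (counts per 1e6 UMIs), with exact Poisson 95% intervals that cover counting error only. A gene was called higher or lower in the members when its CPM differed 2-fold or more, the larger CPM was 10 or more and the intervals were apart. The members were chosen from these same counts, so all values that follow are descriptions of these barcodes. A CPM summed over a group does not tell more barcodes with a transcript from more transcripts per barcode, so shares of barcodes are given for the genes that matter most.

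NEUROD4 encodes a basic helix-loop-helix (bHLH) transcription factor of the proneural cascade, in which early factors such as NEUROG2 switch on later ones as a progenitor leaves the cell cycle. EBF2 belongs to the Early B-cell Factor family, transcription factors that act in neuronal differentiation and migration, and VXN encodes vexin, known in Xenopus embryos to promote neurogenesis. Cells at this step typically display Notch ligands of the Delta family, by which they signal to neighbouring progenitors, and carry HES6, which opposes the Notch effector HES1.

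EBF2, more than NEUROD4, set the membership. The members held 1678 EBF2 UMIs, 176 NEUROD4 UMIs and 152 VXN UMIs, so EBF2 made up 83.6% of their marker UMIs. EBF2 was seen in 328 members (97.0%), NEUROD4 in 117 (34.6%) and VXN in 94 (27.8%). In 162 members EBF2 was the only marker of the 3, 79 had NEUROD4 with EBF2, 55 had VXN with EBF2 and 32 had all 3. A further 4 members had VXN alone, 3 had NEUROD4 alone and 3 had NEUROD4 with VXN. A group named for NEUROD4 was thus mostly a group with EBF2 UMIs, and NEUROD4 was not seen in most members at this depth.

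**Figure D1:**
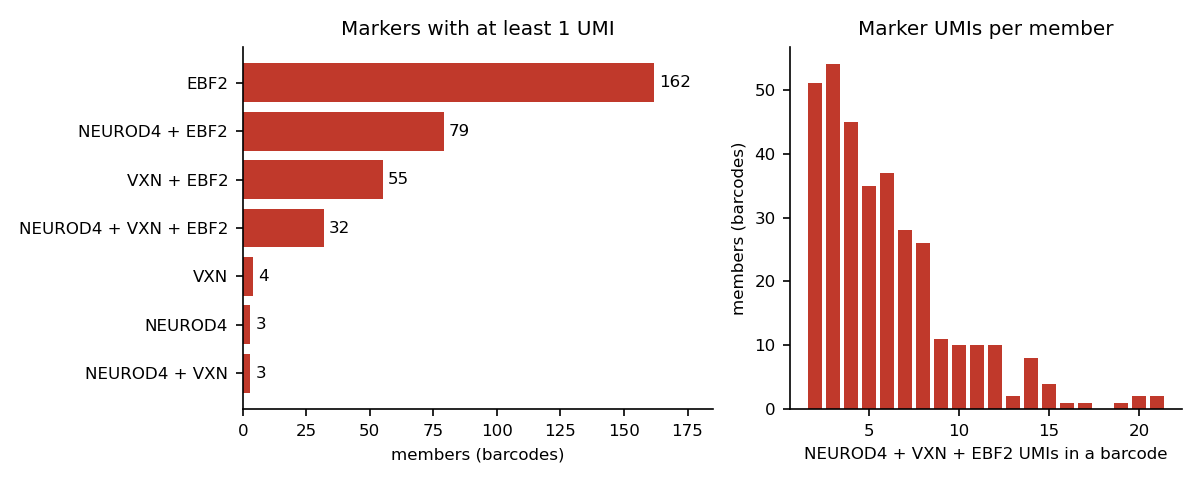
Number of members (of 338) with each combination of EBF2, NEUROD4 and VXN (left), and number of members by their summed UMIs of the 3 markers (right). EBF2 alone (162 members) and EBF2 with NEUROD4 (79 members) were the commonest combinations, and the most marker UMIs in a member were 21.

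Over the rest of day 5 the markers were thin: the other 8881 barcodes held 2271 EBF2 UMIs, 373 NEUROD4 UMIs and 236 VXN UMIs, and 13.8% of them had any marker UMI. EBF2 was at 1050 CPM in members and 45.3 CPM in the others. The members' median marker share was 0.117% of UMIs and the highest 0.333%. Marker UMIs per member ran to 21 with a median of 5, and 105 members had 2 or 3, 182 had 4 to 9 and 51 had 10 or more. The barcodes just inside the limit had shares of 0.0589% (3 of 5097 UMIs) and 0.0593% (3 of 5062), and those just outside 0.0588% (4 of 6803) and 0.0584% (2 of 3424), so membership near the limit rested on single UMIs. The limit also left out 145 barcodes that met the other conditions.

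Across all kept day 5 barcodes each marker was seen more often in barcodes that held another of the 3. Of 429 barcodes with NEUROD4, 56.4% had EBF2, against 11.4% of barcodes without NEUROD4. NEUROD4 and VXN shared 70 barcodes, 16.3% of those with NEUROD4 having VXN against 2.58% of those without. VXN and EBF2 shared 150, with EBF2 in 50.5% of barcodes with VXN and in 12.3% of those without. Deeper barcodes show more of every gene, and these shares were not matched for depth. NEUROD4 (ENSG00000123307) lies at chr12:55019945-55030014, VXN (ENSG00000169085) at chr8:66493208-66518524 and EBF2 (ENSG00000221818) at chr8:25841730-26045397 in GRCh38 with GENCODE 29 annotation.

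The members were slightly shallower than the rest and close to it in measures of RNA quality. Their median depth was 3851.5 UMIs, against 4397 in the others. Mitochondrial genes took 4.27% of UMIs in members and 4.96% in the others, MALAT1, a nuclear long noncoding RNA, 7.46% and 7.24%, and genes with over 100000 intronic bases 47.0% and 46.4%. Depths above 12777.9 UMIs, the 95th percentile of kept barcodes, were found in 2.07% of members and 5.11% of the others, and 5.03% and 5.46% fell among the highest 5% of Scrublet doublet scores.

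Against all other day 5 barcodes, the members were higher in 418 of 11205 genes compared (3.73%) and lower in 995 (8.88%), with a median log2 ratio of −0.08 over all genes compared. Among the higher genes were Delta ligands and HES6, co-repressors of the CBFA2T family, the neural splicing factor SRRM4, EBF3, ST18 and RNA-binding proteins of the ELAVL family. Among the lower genes were adhesion molecules, ion channels, receptors, the progenitor gene RFX4 and S phase and mitosis genes. In a list of 19 genes of neuronal commitment and transit, 13 reached 10 CPM in either group, 9 were higher, 0 were lower and the median log2 ratio of the 13 was 2.12. That list was drawn up with earlier results of these data known, so its count is not independent evidence of a direction.

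The ligands of Notch and a modifier of Notch were in this list. DLL3, a divergent Delta that in mouse cells blocks Notch in the cell that makes it, had 397 CPM (interval 367 to 429) in members and 61.1 CPM (59.0 to 63.3) in the others, a log2 ratio of 2.70. DLL1, the ligand that activates Notch on neighbouring cells, had 142 CPM (124 to 162) in members and 36.8 CPM (35.1 to 38.5) in the others, a log2 ratio of 1.95, and was seen in 35.8% of members. MFNG, a fringe glycosyltransferase that modifies Notch, had 15.7 CPM in members and 1.60 CPM in the others. The intervals of the 3 genes were apart. DLL4, another Delta, had 2 UMIs in all members.

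HES6, with 344 CPM (316 to 374) in members and 79.1 CPM (76.7 to 81.6) in the others, was higher by 2.12 on the log2 scale and was seen in 64.8% of members. CBFA2T2, a transcriptional co-repressor, had 1435 CPM (1377 to 1495) in members and 272 CPM (268 to 277) in the others, a log2 ratio of 2.40, and its relative CBFA2T3 11.9 and 3.05 CPM. SRRM4, which drives the splicing of neural microexons, had 1013 CPM in members and 232 CPM in the others, a log2 ratio of 2.13. CBFA2T2 was seen in 93.2% of members and SRRM4 in 92.3%, so both were present in nearly all of them. GADD45G, a growth arrest gene, was at 38.9 CPM in members and 7.60 CPM in the others, and SSTR2, a somatostatin receptor, at 50.8 and 8.74 CPM.

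The rest of the commitment list did not pass the call. BTG2, an antiproliferative gene, had 22.6 CPM in members and 12.0 CPM in the others, RND2, a small GTPase of neuronal migration, 27.6 and 15.5 CPM, TAGLN3 71.5 and 44.2 CPM and RND3 56.5 and 44.7 CPM. INSM1, a zinc finger factor of neuronal delamination, stayed under the level limit with 5.65 and 3.63 CPM. EOMES, the marker of intermediate progenitors of the cortex, had 0 UMIs in members.

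Promoters are shown for the commitment genes that were higher and whose window holds CAGCTG or CAGATG, together with the promoter of NEUROD4 itself. Both are forms of the E-box, the motif that bHLH factors bind. Of the 9 higher genes, 6 had a RefSeq entry (GRCh38.p14), and DLL1, DLL3 and MFNG had none in the table used. The windows ran from 250 bases before to 50 bases after the start, and the E-boxes CAGCTG, which reads the same on both strands, and CAGATG were searched on both strands. Other forms of the E-box were not searched and are not marked, and windows shown or left out may hold them. No match in these windows overlapped another. The 250 bases before the start are printed 5′ to 3′ on the strand of the gene, with the motif in capitals. HES6 (minus strand) is chr2:238240039-238240288, GADD45G (plus) chr9:89604762-89605011, CBFA2T2 (plus) chr20:33562092-33562341, SRRM4 (plus) chr12:118981291-118981540 and NEUROD4 (plus) chr12:55019724-55019973.
HES6: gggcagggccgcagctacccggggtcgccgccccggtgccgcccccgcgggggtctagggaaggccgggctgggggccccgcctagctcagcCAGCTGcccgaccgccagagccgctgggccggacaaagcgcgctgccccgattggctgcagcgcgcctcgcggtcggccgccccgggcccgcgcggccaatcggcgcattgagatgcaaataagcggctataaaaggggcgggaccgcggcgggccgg
GADD45G: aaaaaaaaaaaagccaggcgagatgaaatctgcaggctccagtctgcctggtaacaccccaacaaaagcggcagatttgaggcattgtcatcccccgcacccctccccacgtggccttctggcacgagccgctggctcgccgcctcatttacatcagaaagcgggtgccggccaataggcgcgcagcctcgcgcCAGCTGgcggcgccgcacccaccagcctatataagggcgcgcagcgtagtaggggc
CBFA2T2: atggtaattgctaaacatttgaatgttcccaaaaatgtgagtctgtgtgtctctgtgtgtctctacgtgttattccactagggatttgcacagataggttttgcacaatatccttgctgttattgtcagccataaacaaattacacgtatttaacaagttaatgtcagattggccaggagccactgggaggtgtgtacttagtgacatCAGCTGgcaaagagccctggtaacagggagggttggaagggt
SRRM4: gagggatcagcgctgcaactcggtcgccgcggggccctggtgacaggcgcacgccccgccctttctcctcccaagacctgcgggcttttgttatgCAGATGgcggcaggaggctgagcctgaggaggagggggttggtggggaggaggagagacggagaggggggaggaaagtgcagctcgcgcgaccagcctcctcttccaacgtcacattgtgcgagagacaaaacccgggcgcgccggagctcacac
NEUROD4: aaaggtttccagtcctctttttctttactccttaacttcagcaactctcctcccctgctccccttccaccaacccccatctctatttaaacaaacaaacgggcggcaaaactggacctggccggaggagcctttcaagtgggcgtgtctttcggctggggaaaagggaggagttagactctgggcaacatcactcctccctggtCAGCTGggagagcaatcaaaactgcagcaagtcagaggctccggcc
CAGCTG began 158 bases before the start of HES6, 56 before that of GADD45G, 42 before that of CBFA2T2 and 46 before that of NEUROD4. The CBFA2T2 start of the RefSeq table lies inside the gene's GENCODE span, chr20:33490075-33650036, and not at its first base. SRRM4 had CAGATG 155 bases before its start, and the windows of SSTR2 and CBFA2T3 held neither. Of all 27195 RefSeq windows of this length, 17.7% held CAGCTG and 14.7% CAGATG. A match describes letters and no binding. A share over the 418 higher genes or over the 9 commitment genes would be void, since 236 and 6 of them had an entry.

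Other bHLH factors of the cascade were scarce. Of 18 bHLH genes 6 reached 10 CPM, and 3 were higher and 0 lower. NHLH1, a late neuronal bHLH factor, had 36.4 CPM in members and 7.88 CPM in the others, NHLH2 15.1 and 5.51 CPM, and TCF4, the general partner of these factors, 1392 and 500 CPM. NEUROG2 had 7 UMIs in all members, NEUROD1 had 3, and 7 bHLH genes had 0. NHLH2 was not called when members needed a NEUROD4 UMI. The early factors of the cascade were therefore nearly undetected in these members.

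Later neuronal transcription factors were better represented, with 9 of 21 higher and 0 lower against the other day 5 barcodes. Against the groups with transmitter gene UMIs compared below, higher calls did not outnumber lower ones. ST18, of the MYT1 zinc finger family, had 794 CPM (751 to 839) in members and 99.8 CPM (97.0 to 103) in the others, a log2 ratio of 2.99. The EBF2 relatives EBF3 and EBF1 had 420 and 398 CPM in members, against 98.9 and 177 CPM in the others. MYT1, known in mouse to repress Notch pathway genes, had 67.1 CPM in members and 23.4 CPM in the others. SCRT1 and SCRT2, zinc finger repressors of newborn neurons, had 29.5 and 31.4 CPM in members, against 10.2 and 9.90 CPM in the others. POU2F2, ZEB1 and SOX11 were also higher, SOX11 by 1.01 on the log2 scale with 379 and 188 CPM. SCRT1 and SOX11 were not called when members needed a NEUROD4 UMI, nor SOX11 after thinning to equal depth. MYT1L, of mature neuron identity, was at 155 CPM in members and 162 CPM in the others.

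Among 26 genes shared by most neurons, 5 were higher and 1 was lower. The neuronal RNA-binding proteins ELAVL4, ELAVL2 and ELAVL3 had 387, 749 and 222 CPM in members, against 84.9, 220 and 82.9 CPM in the others. DCX, doublecortin of migrating neurons, had 390 CPM (360 to 422) in members and 144 CPM (141 to 148) in the others, and RBFOX3, the NeuN antigen, 49.6 and 20.4 CPM. STMN2 (527 CPM in members, 325 CPM in the others), MAP2 (1501 and 927 CPM) and TUBB3 (288 and 182 CPM) were not called, and MAPT, the axonal protein tau, was lower with 25.7 and 52.2 CPM. The MAPT ratio turned to 0.12 on the log2 scale when barcodes with transmitter UMIs were let into the members, and it was not called after trimmed mean (TMM) or median of ratios scaling.

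Axon guidance genes divided, with 4 of 32 higher and 8 lower. DCC, a receptor for netrin, was the most abundant, with 4858 CPM (4751 to 4968) in members and 1288 CPM (1278 to 1298) in the others, a log2 ratio of 1.92. The receptors PLXNA2 (829 and 253 CPM), EPHA3 (1119 and 397 CPM) and NRP1 (102 and 43.8 CPM) were also higher. The secreted cues were lower: NTN1, the netrin ligand of DCC, had 421 CPM in members and 957 CPM in the others, SLIT2 434 and 1181 CPM, SLIT3 84.7 and 332 CPM and SEMA3C 4.39 and 39.6 CPM. SLIT1, at 250 and 502 CPM, was lower as well but not with TMM or median of ratios scaling. UNC5C, another netrin receptor, and CHL1 and DAB1 of neuronal migration made up the lower calls. Among the guidance genes that passed the call, the secreted cues were all lower in members, and the receptors were higher except UNC5C. NRP1 was not called with members taken from the top 10%.

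Genes of later neuronal function were mostly lower or not called against all other day 5 barcodes, which include those with transmitter gene UMIs. Of 34 adhesion genes 2 were higher (CDH7 and NLGN1) and 16 lower, among them PCDH7 with 90.4 CPM in members and 481 CPM in the others and CNTN4 with 303 and 1265 CPM. Of 25 ion channel genes, 1 was higher, the potassium channel partner KCNIP4 with 469 and 143 CPM, and 9 were lower, among them the potassium channel KCND2 with 31.4 and 113 CPM. Of 23 transmitter receptor genes, 1 was higher, GRIA3 with 109 and 39.4 CPM, and 8 were lower, the NMDA receptor subunit GRIN2A with 96.6 and 406 CPM. Of 20 synaptic genes, CPLX2, a complexin of vesicle release, and SV2C were higher, with 137 and 183 CPM in members, against 23.9 and 63.0 CPM in the others, and UNC13C was lower. Since the rule removed barcodes with transmitter transporter UMIs, some of these lower calls depended on the rule: without that condition the log2 ratios of OPCML, SCN2A, SCN9A and CACNA1C, all lower here, became 0.08, 0.17, 0.23 and 0.20.

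In the Notch and ID list and the neural progenitor list, the genes that passed the call were lower. Of 12 Notch and ID genes 0 were higher and 2 lower: HES1, the main Notch effector, with 17.6 CPM in members and 39.7 CPM in the others, and the receptor NOTCH2 with 20.7 and 43.3 CPM, which was not called with median of ratios scaling. Over all genes compared 3.73% were higher and 8.88% lower, so a count of 2 in 12 says little about the list. HES5 had 50.2 and 48.5 CPM. Of 16 neural progenitor genes 4 were lower: SOX6 (30.1 CPM in members, 140 CPM in the others), RFX4 (702 and 1973 CPM), the glial glutamate transporter SLC1A3 (97.9 and 275 CPM) and HMGA2 (90.4 and 247 CPM). The stem cell factors SOX2 (80.9 and 75.2 CPM), NES (133 and 125 CPM) and PAX6 (38.3 and 38.6 CPM) were not called, and 77.5% of members still had an RFX4 UMI. PAX3, another progenitor gene, went the other way by less than 2-fold, with intervals apart. Over the genes shared by all libraries it had 228 CPM (205 to 253) in members and 165 CPM (161 to 168) in the others. The share of barcodes with PAX3 was not higher in members: after thinning to equal depth it was 18.3% in members and 18.6% in the others. NFIA, a factor of the progenitor-to-glia switch named here after its values were seen, was lower with 107 CPM in members and 607 CPM in the others.

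Cell cycle genes were lower in part. Of 20 S phase genes 7 were lower and 0 higher, with a median log2 ratio of −0.65, and of 21 mitosis genes 7 were lower and 0 higher, with a median of −0.63. The DNA repair helicase BRIP1 had 38.9 CPM in members and 127 CPM in the others, the origin loading factor CDC6 4.39 and 11.8 CPM and the spindle checkpoint kinase BUB1B 18.2 and 54.9 CPM. MKI67, the usual proliferation marker, was at 50.8 and 54.7 CPM and TOP2A at 129 and 178 CPM, neither called. CENPE, ASPM and ANLN, among the lower mitosis genes, were not called with median of ratios scaling, nor CDC6, ASPM and ANLN after thinning. CDKN1C, a cyclin-dependent kinase inhibitor of cell cycle exit, was higher with 141 CPM in members and 52.8 CPM in the others, a log2 ratio of 1.41. It was the 1 gene called of 5 cyclins and kinase inhibitors at 10 CPM or more.

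**Figure D2:**
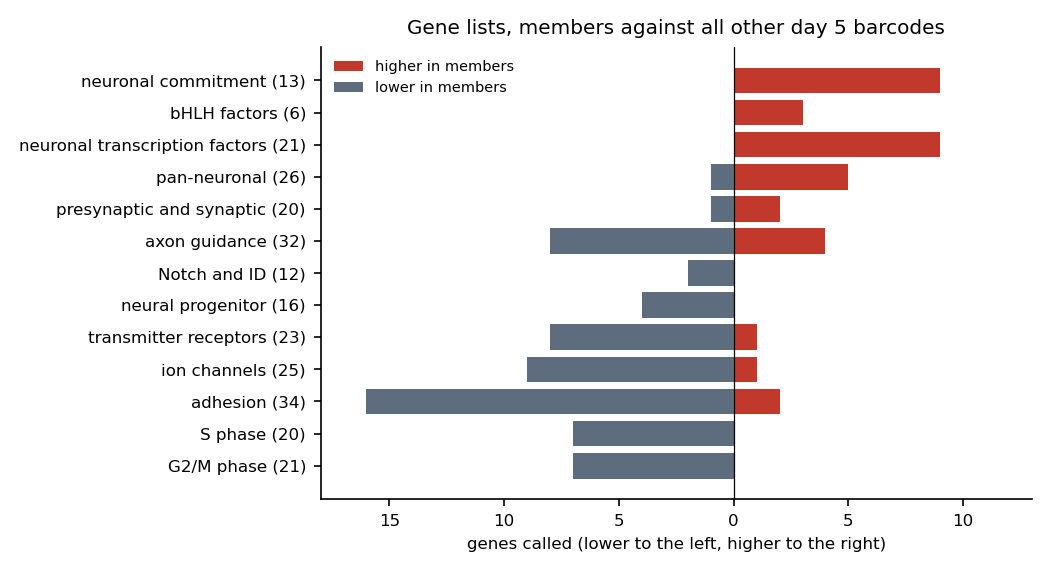
Number of genes called higher (right) and lower (left) in members against the other day 5 barcodes, by list, with the genes at 10 CPM or more in brackets. The commitment list has 9 of 13 genes higher and 0 lower, and the adhesion list 2 of 34 higher and 16 lower.

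Markers of fibroblasts, glia, blood, vessel, muscle and pluripotent cells did not set the members apart as a whole. A list of 14 sensory, retina and neural crest genes summed to 929 CPM in members and 115 CPM in the others. Of the 2 genes of that list at 10 CPM or more, 1 was higher and 0 lower. The higher one was EYA2, with 887 CPM in members and 74.6 CPM in the others. Most of each sum was thus EYA2, and the sums say little about the rest of the list. Of 9 fibroblast and mesenchymal genes at 10 CPM or more (of 21 listed), 0 were higher and 2 lower, COL5A1 and COL14A1. The list summed to 1463 CPM in members and 1615 CPM in the others, with VIM at 1038 and 993 CPM, COL1A2 at 122 and 159 CPM and COL6A3 at 0 UMIs in members. Of 9 glial genes, MBP, a myelin protein, was lower with 4.39 and 36.2 CPM, the list summed to 40.8 and 77.3 CPM, and GFAP, OLIG1, MOG and CSPG4 were at 0 UMIs in members. Of 19 genes of blood, vessel, muscle and pluripotent cells 0 were called, the sums were 64.6 and 72.0 CPM, and PECAM1, CDH5, MYOD1, POU5F1 and AFP were at 0 UMIs in members. The part of such transcripts in the results was not tested.

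Of 8 region and HOX genes at 10 CPM or more (of 29 listed) 0 were called in either direction. With 3.73% of all genes compared called higher and 8.88% lower, 0 of 8 says little. In 7 of the 8 the ratio was above 1, with a median log2 ratio of 0.45. Against the barcodes with progenitor genes compared below, 2 of 8 were higher and 0 lower. Among 9 genes of spinal and hindbrain neuron subtypes at 10 CPM or more (of 40 listed), the transcription factors PRDM8 (34.5 CPM in members, 6.27 CPM in the others), TFAP2B (24.5 and 5.91 CPM) and LHX1 (86.0 and 29.1 CPM) were higher. PAX8 was lower with 3.76 and 17.1 CPM. No source used here says whether counting used strand, so reads of PAX8 and its antisense partner PAX8-AS1, and of LHX1 and LHX1-DT, cannot be told apart.

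By ratio alone, EYA2 stood highest among genes with at least 50 CPM outside the rule. EYA2, a phosphatase and transcription coactivator, had 887 CPM (842 to 935) in members and 74.6 CPM in the others, a log2 ratio of 3.57, and was seen in 80.5% of members; it lies at chr20:46894624-47188844. After it came the sialyltransferase ST8SIA5 (59.0 and 6.09 CPM), the adenylyl cyclase ADCY8 (134 and 14.8 CPM), ST18, the neuronal protease PRSS12 (61.5 and 7.82 CPM), the metalloprotease ADAMTS19 (196 and 29.2 CPM) and TMEM132B (730 and 112 CPM). DLL3, SSTR2, CPLX2, the transcriptional repressor ZBTB18 (105 and 19.0 CPM), BAALC, KLHDC8A (160 and 29.9 CPM), CBFA2T2 and the potassium channel KCNJ6 (95.4 and 18.8 CPM) closed the highest 15. Among these 15 genes, the most that a single member held of the members' UMIs was 6.58% for KCNJ6, followed by 5.32% for ST8SIA5.

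At the other end, WDR49, with 4 UMIs in members (2.51 CPM) and 72.5 CPM in the others, had the lowest ratio. RALYL, an RNA-binding protein, had 23.2 CPM in members and 216 CPM in the others, the potassium channel KCNH5 21.3 and 197 CPM, ARHGAP24 23.2 and 210 CPM, C8orf34 30.1 and 257 CPM, TTC6 31.4 and 235 CPM, CADPS2 16.9 and 126 CPM and the secreted FSTL5 19.5 and 139 CPM. FOXO1, COL23A1, ARHGEF28, SNTB1, PTPRT (77.8 and 501 CPM) and COL25A1 were lower too. A single member held 2 of the 4 WDR49 UMIs, and single members held 50% of the members' UMIs of ARHGEF28, 32.4% of KCNH5, 30.3% of COL25A1, 29.7% of RALYL, 24.2% of PTPRT and 21.6% of ARHGAP24.

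**Figure D3:**
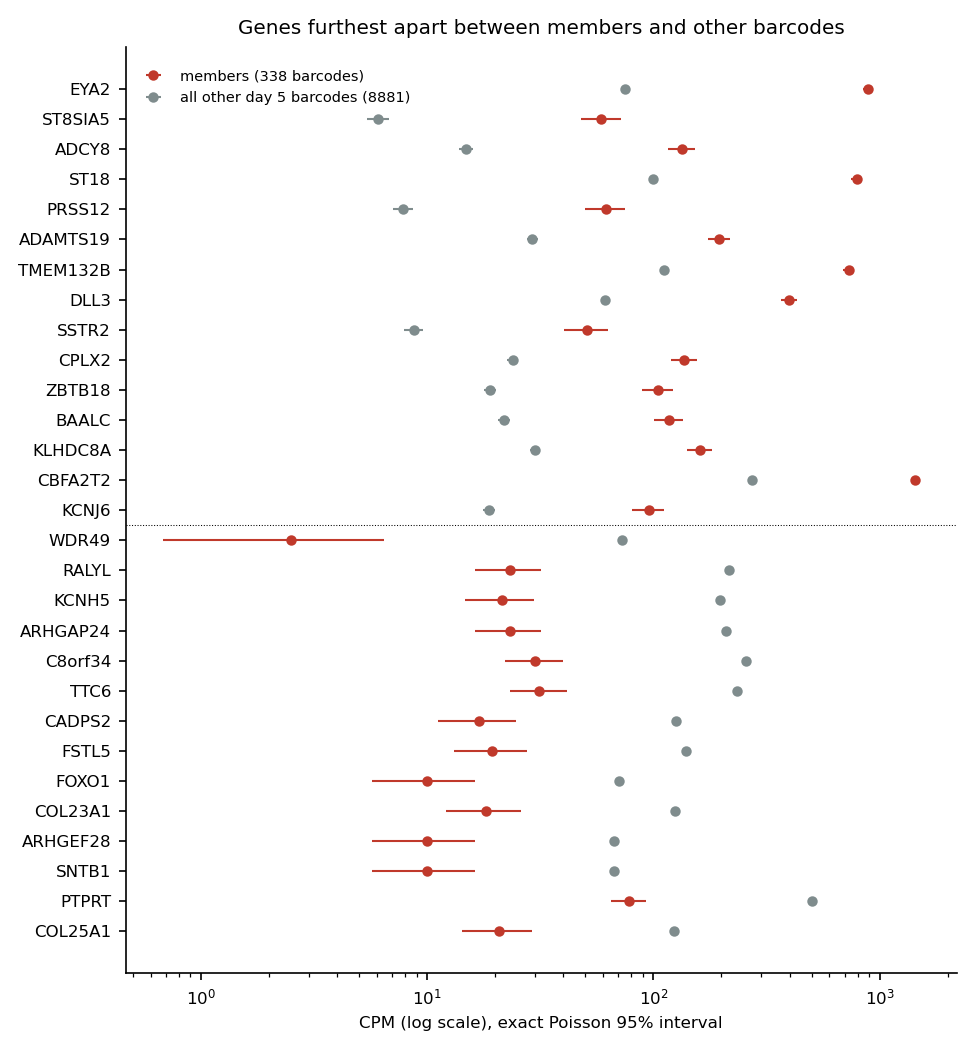
CPM of the genes with the highest and lowest ratios in the members and in the other day 5 barcodes, with exact Poisson 95% intervals, on a log axis. EYA2 (887 CPM in members, 74.6 CPM in the others) leads the higher genes and WDR49 (2.51 and 72.5 CPM) the lower ones.

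Shares of barcodes with a gene depend on depth, so each barcode was also thinned at random to the depth limit for keeping a barcode. After thinning, DLL3 was seen in 56.2% of members and 12.1% of the others, HES6 in 45.6% and 15.6%, SRRM4 in 81.4% and 27.3% and CBFA2T2 in 86.7% and 36.4%. EYA2 was seen in 69.8% of members and 8.19% of the others, and ST18 in 61.2% and 11.0%. At least 2 UMIs of the commitment list were found in 95.3% of thinned members and 43.5% of the thinned others. The same share was 28.4% and 48.0% for the S phase list, 47.3% and 56.4% for the mitosis list and 83.4% and 83.9% for the mesenchymal list. Day 5 barcodes of 500 to 1000 UMIs, which may hold free RNA or shallow cells, had DLL3 at 156 CPM, HES6 at 131 CPM and TOP2A at 608 CPM, so a low share of any of these genes may be background.

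The members were next set against day 5 barcodes with a UMI of a mature transmitter gene. Against the 484 barcodes with SLC17A6 and none of the other 3 transmitter genes, the members were higher in 325 of 11099 genes (2.93%) and lower in 755 (6.8%), and the commitment list had 11 of 13 higher and 0 lower. Against the 1551 barcodes with GAD1, GAD2 or SLC6A5 and no SLC17A6, called inhibitory here, they were higher in 280 of 11065 genes (2.53%) and lower in 674 (6.09%), and 9 of 13 commitment genes were higher and 0 lower. The neuron list went the other way: 1 of 26 genes was higher and 7 lower against the SLC17A6 barcodes, and 2 were higher and 5 lower against the inhibitory ones. Of the neuronal transcription factors, 2 of 21 were higher and 2 lower against the SLC17A6 barcodes. Against the inhibitory ones 3 of 22 were higher and 3 lower. The median depths of these 2 groups were 5364 and 4805 UMIs, both above the members' 3851.5 UMIs. The groups were formed by the very genes whose absence defined the members, so a gene that goes with a transmitter gene may be lower in members by construction.

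ELAVL4, with 387 CPM in members and 155 CPM in SLC17A6 barcodes, was the higher gene of the neuron list. RBFOX1, a splicing factor of maturing neurons, had 733 CPM in members and 2839 CPM in SLC17A6 barcodes, MAPT 25.7 and 128 CPM, GAP43, a protein of growing axons, 47.7 and 136 CPM and the ankyrin ANK3 260 and 930 CPM. STMN4, NSG2 and CELF4 were lower with them. MYT1L, level with the rest of day 5, was lower than in either neuron group, with 155 CPM in members, 348 CPM in SLC17A6 barcodes and 383 CPM in inhibitory ones. Among 34 adhesion genes 2 were higher and 21 lower against SLC17A6 barcodes. The choline transporter SLC5A7 (3.76 and 86.7 CPM) had the lowest ratio there, and the contactin CNTN5 (40.8 and 486 CPM) was also lower. Against inhibitory barcodes PAX8 was lower with 3.76 and 59.0 CPM, as was the calcium channel subunit CACNA2D3 with 87.8 and 661 CPM.

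A last group was the 6050 other barcodes (65.6% of all kept) with at least 2 UMIs of the progenitor genes SOX2, PAX3 and RFX4 and no transmitter gene UMI, a condition that keeps barcodes with transmitter transcripts out of it. RFX4 mostly set this group: it was seen in 98.9% of these barcodes, SOX2 in 35.6% and PAX3 in 27.6%. After thinning, RFX4 was seen in 94.1% of the group and 63.9% of members, SOX2 in 18.4% and 18.3%, and PAX3 in 20.3% and 18.3%. Against these 6050 barcodes, the members were higher in 679 of 11293 genes (6.01%) and lower in 1208 (10.7%), with a median log2 ratio of −0.11. Of the 26 neuron genes 12 were higher and 0 lower, DCX with 390 CPM in members and 76.3 CPM in progenitor barcodes, STMN2 with 527 and 137 CPM and RBFOX3 with 49.6 and 6.27 CPM. Of the neuronal transcription factors 14 of 20 were higher and 0 lower, EBF3 with 420 and 34.5 CPM and MYT1L with 155 and 39.6 CPM. Lists of later neuronal function divided here. Ion channels had 5 of 24 higher and 3 lower, and synaptic genes 6 of 20 higher and 2 lower. Transmitter receptors had 6 of 22 higher and 7 lower, and adhesion genes 4 of 33 higher and 11 lower. S phase genes had 10 of 20 lower and 0 higher and mitosis genes 9 of 21 lower and 0 higher. ATAD2 had 43.9 CPM in members and 154 CPM in progenitor barcodes, and KIF23, a motor of cytokinesis, 11.9 and 39.3 CPM. Against SLC17A6 barcodes, the S phase list had 1 higher and 1 lower gene and the mitosis list 0 of either.

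The commitment genes that passed the call against the rest of day 5 had their highest level in members among these 4 groups. The 123 barcodes of high marker share with transmitter UMIs, compared further below, were not a group of their own here. DLL3 had 397 CPM in members, 70.0 CPM in SLC17A6 barcodes, 89.9 CPM in inhibitory ones and 46.3 CPM in progenitor ones. HES6 had 344 CPM in members and 75.1, 77.3 and 78.9 CPM in the same 3 groups, so those 3 groups hardly differed from each other. CBFA2T2 had 1435 CPM in members, against 360, 344 and 224 CPM, and SRRM4 1013 CPM, against 417, 426 and 120 CPM. DLL1 had 142 CPM in members, against 36.1, 37.3 and 36.8 CPM, nearly the same in the 3 groups. EYA2 had 887 CPM in members, against 101, 160 and 33.3 CPM, and ST18 794 CPM, against 146, 223 and 41.4 CPM. After thinning, DCX was seen in 47.9% of members and 38.6% of SLC17A6 barcodes, and STMN2 in 57.1% and 69.0%.

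**Figure D4:**
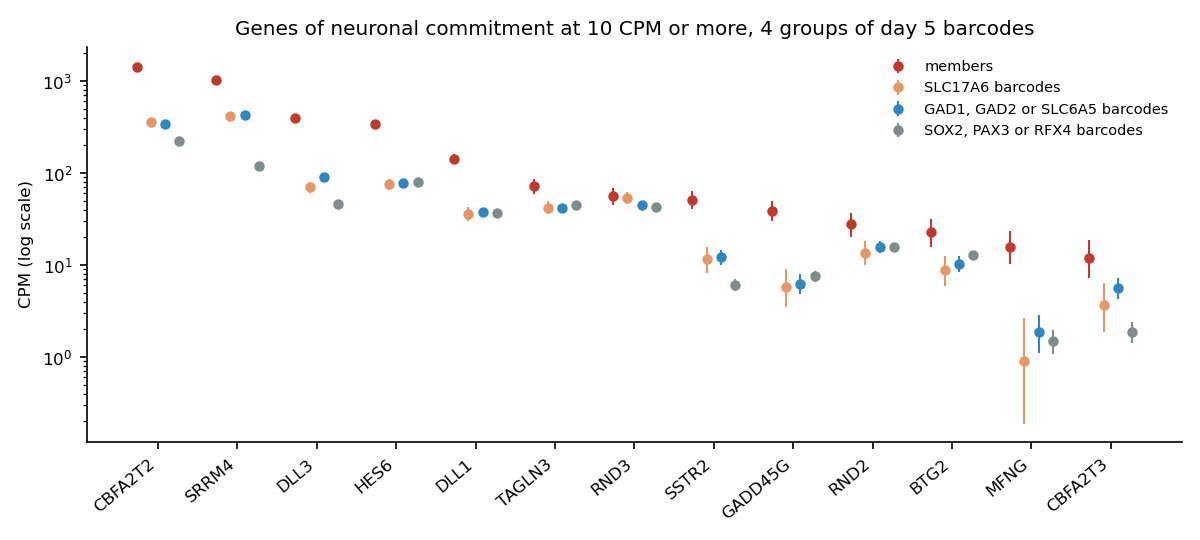
CPM on a log axis of the 13 commitment genes at 10 CPM or more, in members and in day 5 barcodes with SLC17A6, with GAD1, GAD2 or SLC6A5 and with progenitor genes, with exact Poisson 95% intervals. DLL3 is at 397 CPM in members, against 70.0, 89.9 and 46.3 CPM in the 3 groups.

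The 123 barcodes that the transmitter condition had set aside, with a marker share as high as the members', were the nearest group. Their median depth was 5350 UMIs. The members were higher in 111 of 10944 genes (1.01%) and lower in 421 (3.85%) against them, a comparison chosen after the data were seen. Of the 13 commitment genes at 10 CPM or more, 3 were called higher and 0 lower. In 12 of the 13 the ratio was above 1, with a median log2 ratio of 0.63. The higher ones were DLL1 with 142 CPM in members and 63.1 CPM in the set-aside barcodes, GADD45G with 38.9 and 17.4 CPM, and MFNG. DLL3, HES6, CBFA2T2 and SRRM4 were not called, so by the call they did not set the members apart from this group. Of the neuron list 0 genes were higher and 8 lower, among them MAPT with 25.7 and 108 CPM and GAP43 with 47.7 and 124 CPM. Of 21 neuronal transcription factors 0 were higher and 3 lower. After thinning to equal depth, 13 of the 111 higher and 163 of the 421 lower genes were still called, so most of the higher calls were lost.

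Few genes were called within the members by NEUROD4. Between 117 members with and 221 without NEUROD4, 40 of 10877 genes were higher (0.368%) and 54 lower (0.496%), and 0 genes of the commitment list were called. DLL3 had 397 CPM in members with NEUROD4 and 397 CPM in members without, and HES6 350 and 339 CPM. Median depth was 4473 UMIs in members with NEUROD4 and 3689 UMIs in those without, and mitochondrial genes took 3.61% and 4.71% of UMIs. All 13 mitochondrial and all 29 ribosomal protein genes had ratios under 1, with 0 called, and the part of these differences in the result was not tested. ROBO3, a receptor of commissural axons, was lower with 35.7 CPM in members with NEUROD4 and 152 CPM in those without, and the calcium channel subunit CACNA2D1 with 158 and 393 CPM. Some higher calls rested on few barcodes: a single barcode held 32.8% of the UMIs of HRH1, 59.9% of those of NRG1 and 87.5% of those of KCTD8. This comparison was also chosen after the data were seen, since the planned one, NEUROD4 without EBF2, had 6 barcodes.

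Ordered by marker share over barcodes without transmitter UMIs, the levels of DLL3, SRRM4, HES6 and EYA2 went up in the order of the steps, with HES6 close between the third and the fourth. The 5 steps were 6036 barcodes with no marker, 334 others with a marker, the next 289 barcodes below the members, the 169 members with the lower shares and the 169 with the higher ones. DLL3 had 39.3, 80.2, 238, 338 and 470 CPM over the steps, and EYA2 18.4, 127, 376, 651 and 1178 CPM. SRRM4 had 106, 302, 567, 853 and 1210 CPM, and HES6 70.3, 121, 266, 288 and 413 CPM. STMN2 ran from 147 CPM through 272, 443 and 469 to 599 CPM, and NFIA ran the other way with 795, 546, 206, 157 and 44.8 CPM. Of the 6 commitment genes followed, INSM1 kept no such order, with 2.98, 3.17, 6.58, 3.41 and 8.39 CPM. SOX2 had 88.2, 66.6, 90.5, 80.8 and 81.1 CPM, with no such order either. The steps follow the share used by the rule, and a level per step does not tell more barcodes with a gene from more UMIs per barcode. The median depths of the steps were 4172, 5181, 3246, 3735 and 3917 UMIs.

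**Figure D5:**
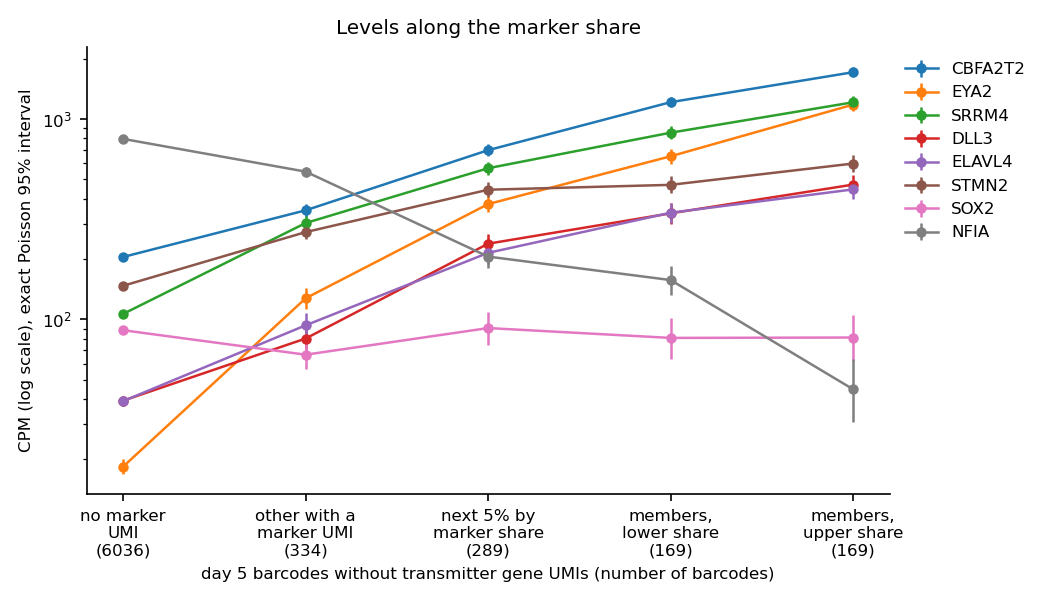
CPM of commitment, neuron and progenitor genes over 5 steps of increasing marker share, from barcodes with no marker UMI to the members with the highest shares, with exact Poisson 95% intervals on a log axis. EYA2 runs from 18.4 to 1178 CPM and NFIA from 795 to 44.8 CPM, while SOX2 stays between 66.6 and 90.5 CPM.

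The members also lay together when the marker and transmitter genes were left out of the clustering. Of 9 clusters at resolution 0.5, 1 cluster of 515 barcodes held 228 members (67.5%), which made up 44.3% of it, and its median depth was 3563 UMIs. Its leading genes besides the markers were ST8SIA5, EYA2, PRSS12, TMEM132B, PAPLN, DLL3 and ADCY8. A second cluster of 1701 barcodes, led by VWDE, ROBO3, CDH12, SPOCK3 and SLC6A5, held 69 members (20.4%). Among the 15 nearest neighbours of a member, 45.0% were members on average, against 2.01% among the neighbours of the others, and 22 members had no member among their neighbours. At either resolution no cluster had more members than other barcodes, and the cluster with most members left the rest of them spread over the others.

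NEUROD4 and EBF2 were scarce or undetected before day 5, while HES6, SSTR2 and CBFA2T2 were already present at day 3. Over the genes shared by all libraries, NEUROD4, SOX2, DCX and NHLH2 had 0 UMIs at day 0 and at day 3. The limit that a count of 0 allows, 3 UMIs, was 0.0122 CPM at day 0 and 0.160 CPM at day 3. EBF2 had 0 UMIs at day 0 and 2 at day 3, and EYA2 17 and 2. DLL3 had 2.56 CPM at day 0, 0.481 CPM at day 3 and 404 CPM in day 5 members. HES6, present earlier, had 5.54 CPM at day 0, 90.6 CPM at day 3 and 349 CPM in day 5 members, and CBFA2T2 7.23, 33.2 and 1458 CPM. SSTR2, in contrast, was at 0.706 CPM at day 0, 117 CPM at day 3 and 51.7 CPM in day 5 members. CDKN1C had 6.67, 74.5 and 143 CPM at these times. Preparation, the software named in the file headers (3.0.1 at day 0, version 4 later) and the gene tables (33538 genes at days 0 and 3, 36601 at day 5) also differ with day. Their part in these differences cannot be told apart from that of time.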

How the data were processed

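The authors deposited UMI counts per gene and barcode without normalization. Cell Ranger 4.0.0 and the build hg38 (GRCh38) are named in the submitters' processing notes, while the header of the day 0 file names 3.0.1. The day 5 matrix held 2037119 barcodes, of which 9304 had at least 2155 UMIs and 85 failed the other filters. Scrublet in scanpy 1.11.5 marked 0.0651% of barcodes as doublets, too few to rely on, and none was removed. The 338 members held 1593752 UMIs and the others 50114770. Counts were summed per group with Python 3.11.15, and groups under 3 UMIs of a gene were set at 3 UMIs in ratios. No p-value was computed.

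The members, 29 gene lists with 594 genes and the markers were chosen with earlier results of these data known. Genes named by size were the 15 with the highest and the 15 with the lowest ratio among called genes at 50 CPM or more (8 and 8 in other comparisons), without genes of the rule, clones, and mitochondrial or ribosomal genes. Up to 6 genes per list with the largest ratios, list genes whose role is given, and preset markers were added. Clusters were made with Leiden (igraph 0.11.9) on 2000 variable genes without the 7 genes of the rule. TMM scaling used edgeR 4.0.16 in R 4.3.3. The call rule was also run on sums simulated with Poisson counting error only. That run holds no spread between cells, so it cannot show how the calls stand up to such spread. Some genes counted in the lists and the rule for named genes are not reported here.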

Additional observations from a re-analysis of the deposited data

How the results depend on the processing

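No paired analysis was possible because each group is 1 library. The comparison of members with the other day 5 barcodes was recomputed under 20 alternatives. Of 124 called genes followed, 50 stayed called under all 20, and 81 under all but the stricter limits on ratio and CPM. With the larger CPM at least 50, 206 genes were higher and 356 lower. A ratio of at least 1.5 gave 843 and 1753, and a ratio of at least 3 gave 157 and 370. Under the other alternatives 332 to 611 genes were higher and 667 to 1301 lower, and no call turned to the opposite call. With no condition on transmitter genes the log2 ratios of MAPT (0.12), OPCML (0.0816), SCN2A (0.17), SCN9A (0.23) and CACNA1C (0.20) reversed; the alternative's own construction admits barcodes with transmitter UMIs. With members from the top 10%, CBFA2T3, NRP1, NLGN1, CNTN5 and CDC6 were among the genes no longer called. Thinned to the depth limit, members against barcodes of high share with transmitter UMIs had 62 higher and 201 lower genes, and members with against without NEUROD4 had 31 higher and 29 lower; thinning leaves fewer UMIs. Of the 40 higher and 54 lower calls between members by NEUROD4, 7 and 7 were also called after thinning, so these single genes are uncertain. Median of ratios scaling moved the median log2 ratio by 0.11 against progenitor barcodes, and the share of higher calls there was 45.3% with it and 36.0% without. Intervals of thinned shares were apart for 31 of 42 genes, and for 32 without thinning. Single UMIs near the share limit, free RNA and preparation by day limit all values, and with 1 library nothing is known of the spread between cultures.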

Other observations

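Gene groups outside the neuronal lists gave a few further values for members and the other day 5 barcodes. SLC6A3, the dopamine transporter, had 30 UMIs and 18.8 CPM in members and 1.28 CPM in the others, a log2 ratio of 3.88, while the choline transporter SLC5A7 (3.76 and 26.9 CPM) was lower. In the neuropeptide list the processing enzyme PCSK2 (144 and 55.3 CPM) and the granin SCG3 (154 and 68.0 CPM) were higher, and VGF (12.5 and 32.1 CPM) and TAC1 (3.14 and 10.9 CPM) were lower. The nuclear long noncoding RNAs MIAT (582 and 144 CPM) and KCNQ1OT1 (914 and 431 CPM) were higher. Of 5 targets of cAMP signalling at 10 CPM or more, the pathway forskolin acts on, 0 were higher and 2 lower, NR4A3 (10.7 and 37.8 CPM) and BDNF (6.90 and 14.4 CPM). IRX5, of the dorsal neural tube list, was higher with 18.2 and 8.68 CPM, and KHDRBS3, of the RNA-binding list, lower with 41.4 and 88.6 CPM. Of the 3 Cajal-Retzius genes at 10 CPM or more, and of 13 mitochondrial and 29 ribosomal protein genes, 0 were called in either direction.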
